A study of Mus musculus with 25 samples.

Results

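The matrix metalloproteinases Mmp2, Mmp3, Mmp7, Mmp8, Mmp9, Mmp10, Mmp12, Mmp13 and Mmp14, with the inhibitor Timp1, were followed through colitis caused by dextran sulfate sodium (DSS) in the mouse colon. The genes were taken by name, and all 10 have a probe on the array, among 25444 genes and unnamed probes that were bright enough to test. Mmp12 failed that brightness criterion, which left 9 of the 10 tested. Every mouse was female, 8 weeks old and on the C57BL/6J background, so that all groups share strain, sex and age, and each array holds the total RNA of the colon of 1 mouse. Day 0 colons came from mice that had drunk no DSS and were labelled Card9-/- (n = 3) or wild type (WT, n = 3). Day 7 colons came from mice at the end of 7 days on 2% w/v DSS, labelled Card9-/- (n = 4) or WT (n = 5). Day 12 colons came from mice that had gone on to plain water for 5 days, labelled Card9-/- (n = 5) or WT (n = 5). By the study's design 5 Card9-/- mice were killed at day 7, of which 1 was not analysed here. Card9 is an adaptor of myeloid cells that carries signals from C-type lectin receptors to NF-κB, and the labels describe the deletion only by the gene's name.

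Matrix metalloproteinases are zinc-dependent enzymes that cut collagen, other matrix proteins, chemokines and cytokines. Most are secreted as inactive precursors that plasmin, furin or another metalloproteinase activates, and the Timp proteins bind and inhibit the active enzymes. In the inflamed gut, stromelysins and interstitial collagenase are produced mainly by stromal cells and macrophages, a collagenase and a gelatinase are stored in neutrophil granules, and matrilysin is made by epithelium. DSS damages the colon epithelium, which is followed by infiltration of leukocytes and then by repair.

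The genes of the stromelysins, the collagenases and matrilysin lie side by side on mouse chromosome 9. In the RefSeq annotation the order is Mmp13, Mmp12, Mmp1b, Mmp3, Mmp1a, Mmp10, Mmp8, Mmp27, Mmp20 and Mmp7, which makes 10 neighbouring protein-coding genes, of which 6 are among the genes described here. Transcription factors of the AP-1 family, dimers of Fos and Jun proteins, are known to bind the word TGAGTCA or its reverse complement TGACTCA. RefSeq promoter sequences (build GRCm38.p6) were at hand for 8 of the 10 genes, without Mmp2 and Mmp9. The word was present, on either strand, in the 250 bases before a transcript start of 5 of these 8 genes (Mmp3, Mmp7, Mmp10, Mmp12 and Mmp13). Counted by promoter, it was present in 5 of the 10 promoters of these 8 genes, and in 4.46% of 32851 promoters of the same length. Mmp7 and Mmp12 each have a second promoter without the word. The stretches below are shown because 3 of these genes, Mmp3, Mmp10 and Mmp13, had the widest differences in the tissue at day 7. Mmp7 carries the same word and differed far less at day 7. Each is 120 bases that end at the base before the transcript start, on the plus strand, written 5′ to 3′, with the AP-1 word in capitals.
Mmp3, chr9:7445702-7445821: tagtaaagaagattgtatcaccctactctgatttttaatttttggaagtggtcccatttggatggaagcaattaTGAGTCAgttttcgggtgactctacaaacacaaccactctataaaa
Mmp10, chr9:7502222-7502341: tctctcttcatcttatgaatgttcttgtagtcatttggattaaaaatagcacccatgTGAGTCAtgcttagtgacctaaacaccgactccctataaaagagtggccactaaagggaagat
Mmp13, chr9:7272394-7272513: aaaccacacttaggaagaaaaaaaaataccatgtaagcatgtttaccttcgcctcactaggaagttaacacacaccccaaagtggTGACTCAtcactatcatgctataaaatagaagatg
Mmp7, chr9:7691970-7692089: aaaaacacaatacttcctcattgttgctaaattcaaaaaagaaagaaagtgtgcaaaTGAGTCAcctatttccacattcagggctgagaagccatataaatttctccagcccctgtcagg
The word began at position -46 from the transcript start in Mmp3, at -63 in Mmp10, at -35 in Mmp13 and at -63 in Mmp7. TATAAA, the core of the TATA box, was found on either strand in the same window of the same 4 genes. Counted by promoter, it was in 4 of the 10 promoters of the 8 genes and in 12.4% of all promoters. TATAAA did not overlap the AP-1 word in any of the 4 genes. These matches describe the letters only, and binding of a factor was not measured.

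Each array probe is a 60-base oligonucleotide. Mmp7 and Mmp12 probes that lie in coding sequence are shown. Mmp7 departed from the others at day 7 in arrays labelled Card9-/-, and Mmp12 was too dim to test. Coordinates are of build mm9, and the letters have no capitals because no part is singled out.
Mmp7 probe, chr9:7697641-7697700: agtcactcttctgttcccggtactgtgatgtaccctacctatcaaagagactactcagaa
Mmp12 probe, chr9:7352935-7352994: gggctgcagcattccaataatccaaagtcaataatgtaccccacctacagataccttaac
The other probes lie at chr9:7455751-7455810 (Mmp3), chr9:7510011-7510070 (Mmp10), chr9:7282762-7282821 (Mmp13), chr9:7568238-7568297 (Mmp8), chr2:164780620-164780679 (Mmp9), chr8:95376840-95376899 (Mmp2), chr14:55058775-55058834 (Mmp14) and chrX:20451802-20451861 (Timp1). Mmp12 has a second probe at chr9:7360373-7360432.

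All levels below are log2 intensities relative to the 75th percentile of the same array, so a level of 0 is as bright as that percentile, and levels of different genes are not set against each other. Between 46.5% and 67.1% of probes were well above background on an array. The 12 colon epithelium markers, such as Muc2 and Cdx2, averaged between 6.40 and 7.14 on every array. The single Card9 probe went against the labels: it was brighter in the 12 arrays labelled Card9-/- (-1.52 to -0.48) than in the 13 labelled WT (-6.84 to -2.93), with no overlap. Genotype directions therefore rest on the labels alone. Some arrays stood apart. Pancreatic acinar genes averaged 9.35 and 9.69 in replicates 2 and 3 labelled Card9-/- at day 7, 8.61 in replicate 1 labelled Card9-/- at day 12 and 3.22 in replicate 5 labelled WT at day 12, and between -5.07 and -2.07 elsewhere. Hox genes of the proximal colon averaged 1.76 and 1.38 in replicates 1 and 2 labelled Card9-/- at day 0 and 1.62 in replicate 1 labelled WT at day 7. Replicate 4 labelled WT at day 12 was at 0.54 and is not counted among these 3 arrays. All other arrays were at -0.74 or below. Whether the arrays with high Hox genes hold another stretch of gut was not tested, nor was the source of the acinar genes. Calls that changed without these arrays are given with the results.

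By day 7 of DSS the stromelysins Mmp3 and Mmp10, the collagenase Mmp13 and the inhibitor Timp1 had risen in both genotypes. In arrays labelled Card9-/-, 8 of the 9 tested genes rose against day 0 (all but Mmp7), where 19.7% of all tested genes were called in either direction and 6.93% were called higher. In arrays labelled WT, 4 of the 9 rose (Mmp3, Mmp10, Mmp13 and Timp1), where 4.35% of all tested genes were called in either direction and 2.02% were called higher. A gene was called where the limma p, adjusted with the Benjamini-Hochberg method over all 25444 tested, was under 0.05. The median log2 difference of the 9 genes was 4.55 in arrays labelled Card9-/- and 2.60 in arrays labelled WT, beside -0.081 and 0.026 over all tested genes. Mmp3, Mmp8, Mmp9, Mmp10 and Mmp13 were well above background on fewer than 3 day 0 arrays. They met the brightness criterion through arrays after DSS, and Mmp12, dim on every array, is not in these counts. Values at day 7 and day 0 did not overlap for 8 of the 9 genes in arrays labelled Card9-/-, where 27.1% of all tested genes did not overlap, and for 7 of the 9 in arrays labelled WT, where 11.9% did not. When the 8 WT arrays of these days were fitted alone, none of the 9 genes passed in arrays labelled WT (Mmp3 adjusted p = 0.108), and leaving out single arrays gave 3 to 7 calls, with 7 without replicate 2 at day 7. With the proximal colon Hox mean as a covariate 6 of the 9 passed in arrays labelled WT, Mmp8 (adjusted p = 0.0175) and Mmp9 (adjusted p = 0.048) being added, and Mmp9 also passed with normexp background correction (adjusted p = 0.0398) and without the arrays with high acinar genes (adjusted p = 0.0467). The 3 arrays with high proximal Hox genes were also left out together, an alternative chosen after seeing the data. It leaves 1 day 0 array labelled Card9-/-, which is assumed to vary like the other groups. Then 5 of the 9 were called in arrays labelled Card9-/-, without Mmp2 (3.00, adjusted p = 0.0908), Mmp8 (3.28, adjusted p = 0.107) and Mmp14 (0.60, adjusted p = 0.159), and 6 of the 9 in arrays labelled WT, with Mmp8 (3.06, adjusted p = 0.0229) and Mmp9 (2.68, adjusted p = 0.0332). Counts under these alternative fits, here and in later paragraphs, have no share of all tested genes beside them. The shares given belong to the main fit. A change in such a count is therefore not told apart from a change across all tested genes. In whole tissue, more cells of a type and more RNA per cell cannot be told apart.

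**Figure D1:**
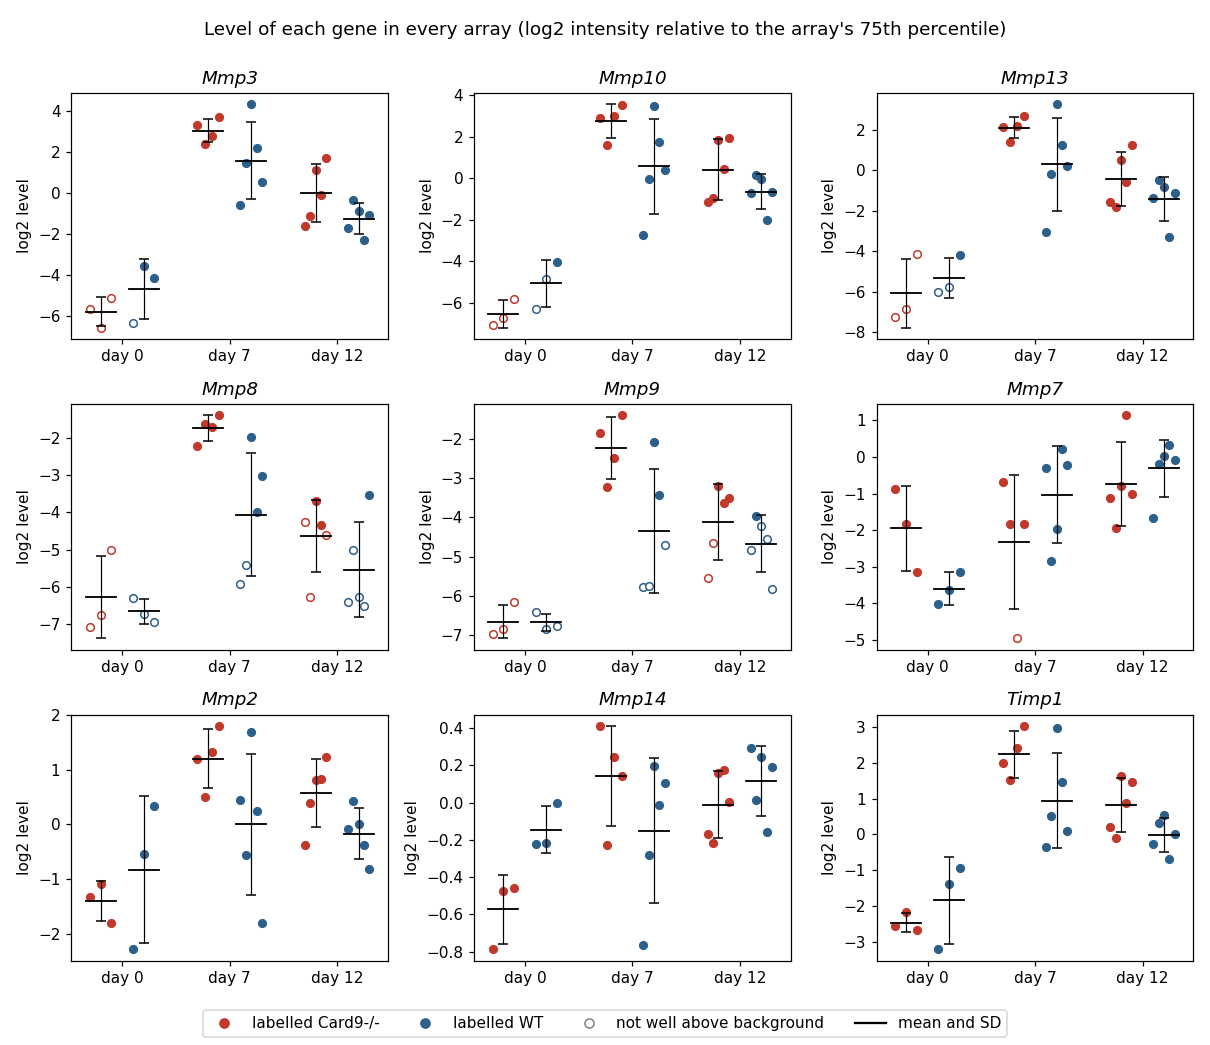
Level of the 9 tested genes in each of the 25 arrays (vertical axes, log2 intensity relative to the array's 75th percentile) by day (horizontal axes), with arrays labelled Card9-/- left of those labelled WT. Filled points were well above background, open points were not, and bars give the mean and SD of each group. For Mmp3, Mmp10 and Mmp13 every day 7 and day 12 array lies above every day 0 array.

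Mmp3, a stromelysin that cuts many matrix proteins and activates other metalloproteinases, moved over the widest range together with its neighbours Mmp10 and Mmp13. In arrays labelled Card9-/-, Mmp3 stood at -5.65, -6.56 and -5.13 at day 0, 3.28, 2.38, 2.79 and 3.70 at day 7 and -1.60, -1.12, 1.12, -0.11 and 1.69 at day 12. The arrays labelled WT read -6.32, -3.55 and -4.16 at day 0, -0.60, 1.43, 4.33, 2.18 and 0.53 at day 7 and -1.70, -0.36, -0.90, -2.29 and -1.05 at day 12. No day 7 array overlapped a day 0 array in either genotype, and none of the 3 day 0 arrays labelled Card9-/- was well above background. Mmp3 rose by 8.82 ± 0.93 on the log2 scale in arrays labelled Card9-/- at day 7 (± SE, adjusted p = 6.07e-06), which is at least 205-fold, as the day 0 level is a bound. In arrays labelled WT it rose by 6.25 ± 0.89 (76.3-fold, adjusted p = 0.000376), where 2 of the 3 day 0 arrays were well above background.

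Mmp10, the second stromelysin, is known for its expression in wound-edge epithelium and in macrophages. Mmp10 levels in arrays labelled Card9-/- were -7.09, -6.73 and -5.82 at day 0, 2.88, 1.60, 2.99 and 3.56 at day 7 and -1.15, -0.94, 1.83, 0.45 and 1.93 at day 12. Mmp10 in arrays labelled WT was at -6.32, -4.87 and -4.04 at day 0, -2.72, -0.050, 3.50, 1.73 and 0.42 at day 7 and -0.71, 0.13, -0.044, -2.02 and -0.64 at day 12. Every array after DSS was above every day 0 array of its genotype, and the 4 day 7 arrays labelled Card9-/- were spread less than the 5 labelled WT (SD 0.83 in arrays labelled Card9-/-, against 2.30 in arrays labelled WT). Mmp10 rose by 9.31 ± 1.04 at day 7 in arrays labelled Card9-/- (at least 169-fold, adjusted p = 1.01e-05) and by 5.65 ± 0.99 in arrays labelled WT (50.3-fold, adjusted p = 0.00263), where 1 of the 3 day 0 arrays was well above background.

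Mmp13 is the main interstitial collagenase of rodents and cuts fibrillar collagen. It stood at -7.21, -6.86 and -4.11 at day 0, 2.14, 1.41, 2.18 and 2.68 at day 7 and -1.59, -1.83, 0.53, -0.60 and 1.25 at day 12 in arrays labelled Card9-/-. Among arrays labelled WT, Mmp13 was at -5.98, -5.75 and -4.18 at day 0, -3.06, -0.20, 3.27, 1.24 and 0.21 at day 7 and -1.38, -0.49, -0.84, -3.29 and -1.12 at day 12. The day 0 arrays were lowest throughout, and replicate 3 was highest and replicate 1 lowest of the day 7 arrays labelled WT. The rise at day 7 was 8.16 ± 1.09 in arrays labelled Card9-/- (at least 107.2-fold, adjusted p = 4.63e-05) and 5.60 ± 1.04 in arrays labelled WT (48.4-fold, adjusted p = 0.00406), where 1 of the 3 day 0 arrays was well above background. Several arrays share a glass slide. Of the slides that held both days, day 7 was above day 0 for Mmp3, Mmp10 and Mmp13 on 2 of 2 slides in arrays labelled Card9-/- and on 3 of 3 in arrays labelled WT.

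Mmp8 and Mmp9, the collagenase and the gelatinase of neutrophil granules, were not well above background in any day 0 array. Mmp8 stood at -7.08, -6.75 and -5.01 at day 0, -2.21, -1.63, -1.72 and -1.38 at day 7 and -4.26, -6.28, -3.69, -4.35 and -4.62 at day 12 in arrays labelled Card9-/-. Mmp8 in arrays labelled WT read -6.30, -6.74 and -6.95 at day 0, -5.92, -5.43, -1.96, -3.98 and -3.02 at day 7 and -6.41, -5.01, -6.27, -6.51 and -3.53 at day 12. All 4 day 7 arrays labelled Card9-/- were well above background and close together, whereas 3 of the 5 labelled WT were. Mmp8 rose by 4.55 ± 0.83 at day 7 in arrays labelled Card9-/- (at least 7.52-fold, adjusted p = 0.000653), and the difference in arrays labelled WT, 2.60 ± 0.79, did not pass (at least 1.56-fold, adjusted p = 0.0672).

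Mmp9, read by 10 spots per array, was also highest at day 7 in arrays labelled Card9-/-. Its levels were -6.97, -6.84 and -6.17 at day 0, -1.84, -3.22, -2.47 and -1.39 at day 7 and -5.55, -4.64, -3.21, -3.63 and -3.51 at day 12 in arrays labelled Card9-/-. They were -6.42, -6.84 and -6.76 at day 0, -5.78, -5.74, -2.08, -3.44 and -4.71 at day 7 and -4.84, -3.95, -4.21, -4.54 and -5.83 at day 12 in arrays labelled WT. All 4 day 7 arrays labelled Card9-/- were well above background, against 2 of 5 labelled WT. Mmp9 rose by 4.43 ± 0.72 in arrays labelled Card9-/- (at least 5.33-fold, adjusted p = 0.000263), and the WT difference of 2.32 ± 0.69 did not pass (adjusted p = 0.0601). Neutrophil markers moved with both genes: 11 of 14 measured markers were called higher at day 7 in arrays labelled Card9-/- and 8 of 14 in arrays labelled WT. Of all tested genes, 6.93% and 2.02% were called higher. S100a9 was up by 12.88 ± 0.84 in arrays labelled Card9-/- and by 7.87 ± 0.80 in arrays labelled WT. The mean level of the list lay between 1.08 and 1.76 in day 7 arrays labelled Card9-/-, against -4.18 to -3.21 at day 0, and between -1.51 and 1.28 in day 7 arrays labelled WT, against -3.63 to -3.23 at day 0. The summed level, on the linear scale, was 202.6 to 307.6 against 92.8 to 107.7 in arrays labelled Card9-/- and 97.7 to 225.7 against 99.8 to 125.1 in arrays labelled WT, and Csf3r, bright at both days, held most of the day 0 sum. Mpo, the granule peroxidase, was not well above background on enough arrays to test. The part of neutrophil number in the rise of Mmp8 and Mmp9 was not tested.

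Mmp2, a gelatinase of stromal cells, and Mmp14, the membrane-anchored enzyme that activates the Mmp2 precursor, were well above background on all 25 arrays. Mmp2 stood at -1.33, -1.08 and -1.80 at day 0, 1.18, 0.49, 1.32 and 1.80 at day 7 and -0.38, 0.39, 0.80, 0.82 and 1.23 at day 12 in arrays labelled Card9-/-. Mmp2 in arrays labelled WT was at -2.28, -0.53 and 0.34 at day 0, 0.45, -0.56, 1.68, 0.25 and -1.80 at day 7 and -0.092, 0.42, 0.015, -0.37 and -0.82 at day 12. The days did not overlap between day 7 and day 0 in arrays labelled Card9-/-, and overlapped widely in arrays labelled WT. Mmp2 rose by 2.60 ± 0.63 at day 7 in arrays labelled Card9-/- (6.07-fold, adjusted p = 0.00541), and the WT difference was 0.83 ± 0.60 (adjusted p = 0.529). Fibroblast markers moved with it in arrays labelled Card9-/-, where 12 of 15 were called higher at day 7, among them Pdpn, Dcn and Col3a1, against 1 of 15 (Pdpn) in arrays labelled WT. The shares of all tested genes called higher were 6.93% and 2.02%. The summed fibroblast level was 147.0 to 287.8 at day 7 and 44.0 to 59.4 at day 0 in arrays labelled Card9-/-, and 52.0 to 260.4 at day 7 and 36.7 to 96.7 at day 0 in arrays labelled WT. No marker of that list was missing from the tested genes, and its part in the Mmp2 values was not tested.

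Mmp14 moved little. Its levels were -0.79, -0.47 and -0.46 at day 0, 0.41, -0.22, 0.24 and 0.14 at day 7 and -0.17, -0.22, 0.16, 0.17 and 0.00098 at day 12 in arrays labelled Card9-/-. They were -0.22, -0.22 and -0.00045 at day 0, -0.77, -0.28, 0.20, -0.012 and 0.11 at day 7 and 0.29, 0.012, 0.24, -0.16 and 0.19 at day 12 in arrays labelled WT. The day 7 arrays labelled Card9-/- were all above day 0, and the WT arrays of the 2 days overlapped. The rise in arrays labelled Card9-/- was 0.72 ± 0.19 (1.64-fold, adjusted p = 0.0112), against -0.0050 ± 0.18 in arrays labelled WT (adjusted p = 0.992). With the proximal colon Hox mean as a covariate the Card9-/- difference was 0.45 (adjusted p = 0.131), and without replicate 1 labelled Card9-/- at day 0 its adjusted p was 0.0727. The call was also lost when the 7 arrays compared were fitted alone (adjusted p = 0.0656).

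Timp1, the secreted inhibitor that binds most of these enzymes and is induced by inflammatory cytokines, rose in both genotypes. It stood at -2.55, -2.17 and -2.66 at day 0, 1.99, 1.51, 2.41 and 3.03 at day 7 and 0.20, -0.10, 1.63, 0.88 and 1.45 at day 12 in arrays labelled Card9-/-. The WT arrays gave Timp1 levels of -3.21, -1.38 and -0.93 at day 0, -0.35, 0.52, 2.98, 1.47 and 0.096 at day 7 and -0.28, 0.31, 0.55, -0.67 and 0.021 at day 12. Day 7 and day 0 did not overlap in either genotype. The rise was 4.69 ± 0.64 in arrays labelled Card9-/- (25.9-fold, adjusted p = 5.55e-05) and 2.78 ± 0.62 in arrays labelled WT (6.87-fold, adjusted p = 0.0128). Without replicate 1 labelled WT at day 0, the lowest Timp1 array, the WT call was lost (2.09, adjusted p = 0.117).

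Mmp7, the matrilysin of epithelial cells, did not follow the others at day 7 in arrays labelled Card9-/-. It stood at -0.86, -1.84 and -3.15 at day 0, -0.69, -1.84, -4.96 and -1.83 at day 7 and -1.11, -1.95, -0.79, 1.15 and -1.01 at day 12 in arrays labelled Card9-/-. Mmp7 in arrays labelled WT was at -4.02, -3.64 and -3.13 at day 0, -0.31, -2.84, -1.97, 0.22 and -0.22 at day 7 and -1.65, -0.18, 0.014, 0.32 and -0.068 at day 12. The arrays labelled Card9-/- overlapped at all days, with replicate 3 at day 7 the lowest of all 25, and every day 7 and day 12 array labelled WT was above every day 0 array labelled WT. The difference at day 7 was -0.38 ± 0.89 in arrays labelled Card9-/- (adjusted p = 0.843) and 2.57 ± 0.85 in arrays labelled WT (adjusted p = 0.0925), and neither passed. The WT value was near those of Mmp8 (2.60) and Mmp9 (2.32) in arrays labelled WT. The Card9-/- difference changed sign under 5 alternatives, none called: it was 0.69 without the arrays with high acinar genes, 0.82 without those with high proximal Hox genes, 0.41 with the Hox covariate, 0.22 with slide as a block and 0.029 with normexp. Replicate 3 labelled Card9-/- at day 7, an array with high acinar genes, was not well above background for Mmp7, and the sign also changed without it (0.50) and without replicate 1 at day 0 (0.17). The WT difference passed without replicate 2 labelled WT at day 7 (3.03, adjusted p = 0.0458).

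Mmp12, the elastase of macrophages, was not well above background on any of the 25 arrays with either probe. The coding probe shown above read -6.14 to -4.48 in day 7 arrays labelled Card9-/-, against -7.01 to -5.96 at day 0, and -6.32 to -5.11 in day 7 arrays labelled WT, against -6.70 to -5.85 at day 0. These readings overlap and have no more than a bound as their level. With no filter on dim probes the day 7 difference of the coding probe was 1.19 ± 0.40 in arrays labelled Card9-/- (adjusted p = 0.0562) and 0.44 ± 0.38 in arrays labelled WT (adjusted p = 0.622). The second probe moved less. It averaged -6.21 at day 7 and -6.49 at day 0 in arrays labelled Card9-/-, and -6.25 and -6.57 in arrays labelled WT. Macrophage markers were bright in the same arrays: 13 of 14 were called higher at day 7 in arrays labelled Card9-/- and 4 of 14 in arrays labelled WT, among them Chil3 and C1qb in both. Among all tested genes 6.93% and 2.02% were called higher. The summed macrophage level was 51.4 to 62.4 at day 7 against 11.1 to 16.3 at day 0 in arrays labelled Card9-/-, and 25.5 to 64.5 against 14.8 to 23.4 in arrays labelled WT, and Cd163 was too dim to test.

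After 5 days on water the group means lay below day 7 for 8 of the 9 genes in arrays labelled Card9-/- and 7 of the 9 in arrays labelled WT. From day 7 to day 12 in arrays labelled Card9-/-, 2 of the 9 genes fell (Mmp3 and Mmp8), where 7.71% of all tested genes were called in either direction and 1.97% were called lower. Mmp3 differed by -3.04 ± 0.81 (adjusted p = 0.0262) and Mmp8 by -2.91 ± 0.73 (adjusted p = 0.0188). The day 12 arrays labelled Card9-/- all lay below the day 7 arrays for both genes and for Mmp13, where 11.3% of all tested genes did not overlap. Mmp9 (-1.88 ± 0.63, adjusted p = 0.0739), Mmp10 (-2.34 ± 0.91, adjusted p = 0.125), Mmp13 (-2.55 ± 0.95, adjusted p = 0.108) and Timp1 (-1.42 ± 0.57, adjusted p = 0.131) were lower without passing. Mmp9 passed with normexp (-0.91, adjusted p = 0.0113) and in the deposited series table (-0.98, adjusted p = 0.0379), and Mmp13 with the Hox covariate (-2.85, adjusted p = 0.0258) and without the arrays with high proximal Hox genes (adjusted p = 0.0462). Without the 3 arrays labelled Card9-/- and the 1 labelled WT with high acinar genes, the differences were as large (-3.09 for Mmp3 and -2.94 for Mmp8) and no longer passed (adjusted p = 0.153 and 0.116). Both calls were also lost without replicate 4 at day 7 or replicate 2 at day 12. The Mmp3 call was also lost without replicate 1 at day 12, and the Mmp8 call without replicate 2 at day 7. In arrays labelled WT none of the 9 genes was called between day 12 and day 7 by limma, where 0.487% of all tested genes were (0.366% higher and 0.122% lower), and 2 of the 9 had an unadjusted p under 0.05, as did 13.1% of all tested genes. The widest WT difference was that of Mmp3, -2.84 ± 0.77 (adjusted p = 0.101), which passed without replicate 1 labelled WT at day 7 (-3.38, adjusted p = 0.042).

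At day 12 all 9 group means were above day 0 in both genotypes, 6 of them called in arrays labelled Card9-/- and 1 in arrays labelled WT. In arrays labelled Card9-/- the genes called higher were Mmp2, Mmp3, Mmp9, Mmp10, Mmp13 and Timp1, where 6.97% of all tested genes were called and 3.71% were called higher. Mmp10 was 6.97 ± 0.99 higher on the log2 scale (at least 33.5-fold, adjusted p = 0.000363). Mmp3 was 5.78 ± 0.89 higher (at least 24.9-fold, adjusted p = 0.000651). Timp1 was 3.27 ± 0.62 higher (9.66-fold, adjusted p = 0.00326). Mmp13 was 5.61 ± 1.04 higher (at least 18.3-fold, adjusted p = 0.00294), and its call was lost with normexp (2.53, adjusted p = 0.0516). The 6 genes called and Mmp14 showed no overlap between day 12 and day 0, where 16.6% of all tested genes did not overlap. Mmp9 (2.55 ± 0.69, adjusted p = 0.0288) and Mmp2 (1.98 ± 0.60, adjusted p = 0.0496) passed narrowly, and each lost its call in 6 alternatives. The Mmp2 call was kept only when replicate 1 at day 12 was the array left out. The Mmp9 call was lost without replicate 1 or 2 at day 0 or replicate 3, 4 or 5 at day 12. With the proximal colon Hox mean as a covariate, 2 of the 9 kept their call (Mmp3 and Mmp10), and the differences of those that lost it were 2.58 for Mmp2, 3.00 for Timp1 (adjusted p = 0.0629), 2.21 for Mmp9 and 3.60 for Mmp13. Without the 3 arrays with high proximal Hox genes Mmp10 alone was called (6.24, adjusted p = 0.0296), with Mmp3 at 5.13 (adjusted p = 0.0868) and Timp1 at 3.47 (adjusted p = 0.122).

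In arrays labelled WT, Mmp10 alone of the 9 was called higher at day 12 than at day 0 (4.42 ± 0.99, 21.4-fold, adjusted p = 0.024), where 1.73% of all tested genes were called and 1.13% were called higher. All 5 day 12 arrays lay above all 3 day 0 arrays, of which 1 was well above background. Mmp10 was not called with normexp (2.22, adjusted p = 0.237), in the deposited series table (2.55, adjusted p = 0.132) or without the arrays with high acinar genes (4.42, adjusted p = 0.0619). The call was also lost when any of 5 of the 8 arrays was left out (replicates 1 and 2 at day 0, replicates 2, 3 and 5 at day 12). Mmp7 (3.28 ± 0.85, adjusted p = 0.051), Mmp3 (3.42 ± 0.89, adjusted p = 0.0523) and Mmp13 (3.88 ± 1.04, adjusted p = 0.0594) lay just short of the threshold, also with no overlap, which held for 6 of the 9 genes and 16.3% of all tested genes. Each of the 3 passed under at least 3 of the alternatives, among them the stricter filter on dim probes (adjusted p = 0.0368, 0.0378 and 0.0433 for Mmp7, Mmp3 and Mmp13). Mmp13 also passed without replicate 4 at day 12 (4.35, adjusted p = 0.0445, limma).

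**Figure D2:**
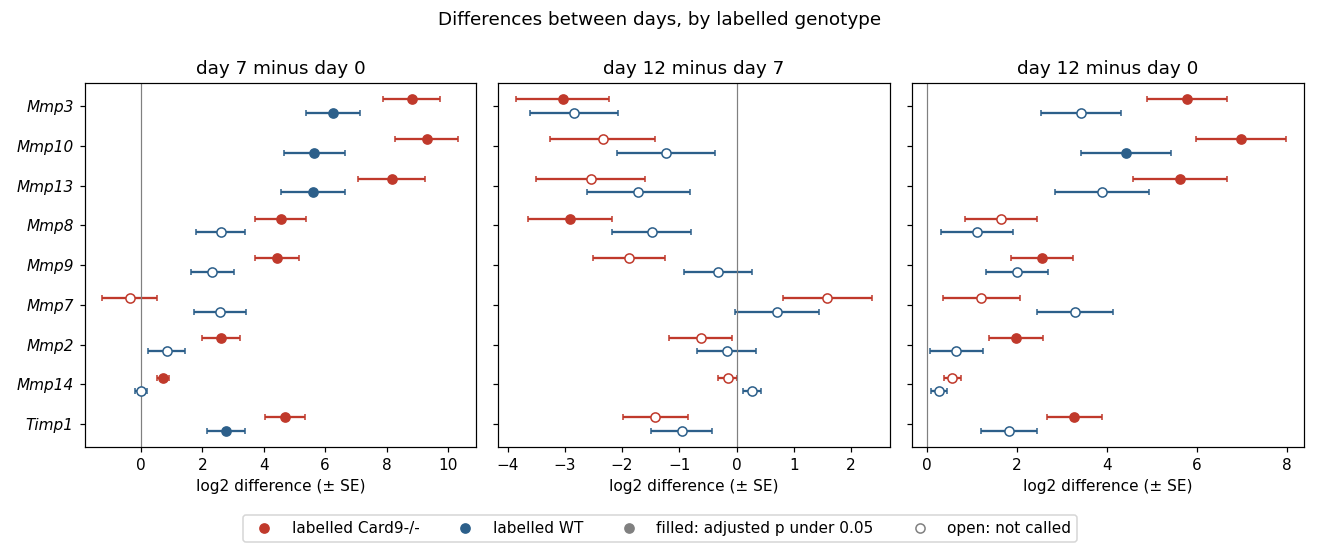
Differences between days (horizontal axes, log2 scale, ± SE of the limma fit) for each gene (vertical axis), with arrays labelled Card9-/- in red above those labelled WT in blue. Filled points had an adjusted p under 0.05. The 3 widest rises at day 7 are Mmp10, Mmp3 and Mmp13 in arrays labelled Card9-/-, at 9.31, 8.82 and 8.16.

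Between the labelled genotypes, none of the 9 genes passed on any day. At day 7, 8 of the 9 averaged higher in arrays labelled Card9-/- and 5 had an unadjusted p under 0.05, as did 16.5% of all tested genes, of which 0.55% were called in either direction after adjustment. Mmp9 averaged -2.23 ± 0.80 (SD, n = 4) in arrays labelled Card9-/- and -4.35 ± 1.59 (SD, n = 5) in arrays labelled WT, a difference of 2.12 ± 0.63 (95% interval 0.80 to 3.44, adjusted p = 0.102). Mmp8 averaged -1.73 ± 0.35 (SD, n = 4) in arrays labelled Card9-/- and -4.06 ± 1.64 (SD, n = 5) in arrays labelled WT, a difference of 2.33 ± 0.73 (95% interval 0.81 to 3.85, adjusted p = 0.115). Mmp8 and Mmp9 were higher in arrays labelled Card9-/- on 4 of 4 slides, and the other genes apart from Mmp7 on 3 of 4. The differences of Mmp10 (2.18 ± 0.91, adjusted p = 0.233), Timp1 (1.29 ± 0.57, adjusted p = 0.254) and Mmp2 (1.19 ± 0.55, adjusted p = 0.279) had intervals that did not reach 0, and those of Mmp3, Mmp13, Mmp14 and Mmp7 did.

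The calls between genotypes at day 7 turned on 1 array. Replicate 3 labelled WT was the highest WT array at day 7 for 8 of the 9 genes, with a mean over the 9 of 1.10, against -2.12, -1.46, -0.037 and -0.93 in the other WT arrays and 0.053 to 1.15 in arrays labelled Card9-/-. Its neutrophil list mean, 1.28, and its fibroblast list mean, 2.91, were also the highest of the WT day 7 arrays. Without it, 4 genes were called higher in arrays labelled Card9-/-: Mmp9 (2.69, adjusted p = 0.00712), Mmp8 (2.85, adjusted p = 0.0153), Timp1 (1.80, adjusted p = 0.0274) and Mmp10 (2.91, adjusted p = 0.0359). The share of all tested genes called in that fit is not given here, so the 4 calls have no background beside them. The array stood out through the values of these same genes and was not set aside by any label. With it none of the 4 passed. Replicate 1 labelled WT, which had high proximal Hox genes, was the lowest WT array at day 7 for 7 of the 9 genes. Without replicate 1 most differences were smaller, and none was called. Mmp10 differed by 1.36, Timp1 by 0.97, Mmp8 by 1.87 and Mmp9 by 1.76. Mmp3 differed by 0.92 and Mmp13 by 0.97, beside 1.46 and 1.81 with all arrays. Mmp2 alone differed more, by 1.31.

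The genotypes were closer at day 12 than at day 7 for every gene, and at day 0 for all but Mmp7 and Mmp14. At day 0 Mmp7 differed by 1.65, Mmp10 by -1.47, Mmp3 by -1.10 and Mmp13 by -0.76, and Mmp7 by -1.30 at day 7. Replicates 1 and 2 labelled Card9-/- at day 0 were high in proximal Hox genes. Without the 3 arrays with high proximal Hox genes the day 0 difference was 0.45 for Mmp7 and 1.19 for Mmp13. At day 0 none of the 9 genes was called, where 0.00393% of all tested genes were, and none had an unadjusted p under 0.05 (4.98% of all tested genes). Mmp14 was the one gene of the 9 without overlap at day 0, as were 16.3% of all tested genes, with -0.57 ± 0.19 (SD, n = 3) in arrays labelled Card9-/- and -0.15 ± 0.13 (SD, n = 3) in arrays labelled WT (difference -0.43 ± 0.21, adjusted p = 0.999). At day 12 none was called, where 0.0707% of all tested genes were (0.0197% higher), and none had an unadjusted p under 0.05 (8.86% of all tested genes). Mmp3 and Timp1 averaged 1.26 ± 0.77 and 0.83 ± 0.53 higher in arrays labelled Card9-/- (adjusted p = 0.7 and 0.723). Mmp3, Timp1 and Mmp8 were higher in these arrays on 4 of 4 slides. Mmp2, Mmp9, Mmp10 and Mmp13 were higher on 3 of 4, and Mmp7 and Mmp14 on 2 of 4.

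The test of whether the day 7 response differed between genotypes called none of the 9 genes, with 0.00393% of all tested genes called. By limma, 5 of the 9 had an unadjusted p under 0.05, as did 11.6% of all tested genes. The response was larger in arrays labelled Card9-/- for 8 of the 9, for Mmp10 by 3.65 ± 1.44 (95% interval 0.66 to 6.65, adjusted p = 0.325), for Timp1 by 1.91 ± 0.89 (adjusted p = 0.413) and for Mmp14 by 0.72 ± 0.27 (adjusted p = 0.292). Mmp7 ran the other way, at -2.95 ± 1.23 (95% interval -5.50 to -0.39, adjusted p = 0.353). It was -1.88 without the arrays with high acinar genes and -1.57 without those with high proximal Hox genes. The Mmp13 value, 2.57, was 0.45 with the Hox covariate and -0.22 without the arrays with high proximal Hox genes, not called in any of the 3. That more genes passed at day 7 in arrays labelled Card9-/- than in arrays labelled WT is therefore not shown to be a difference between the genotypes. The change from day 7 to day 12 also differed for none of the 9 (0.00786% of all tested genes), with no unadjusted p under 0.05 (7.72% of all tested genes).

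**Figure D3:**
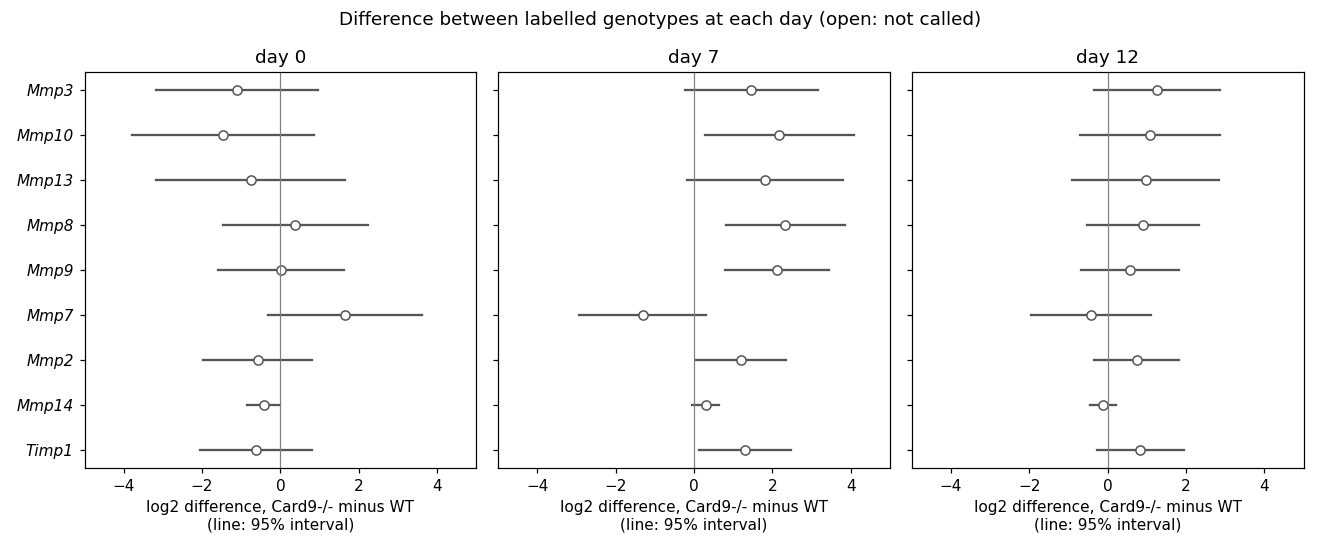
Difference between labelled genotypes, Card9-/- minus WT (horizontal axes, log2 scale), for each gene (vertical axis) at days 0, 7 and 12. Lines are 95% intervals of the limma fit and open points were not called. At day 7 the intervals of Mmp8, Mmp9, Mmp10, Mmp2 and Timp1 lie above 0.

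Across the 25 arrays Mmp3, Mmp10, Mmp13 and Timp1 varied most closely together, and Mmp7 varied apart from the rest. After the mean of each of the 6 groups was removed, the 36 pairs among the 9 genes had a median Pearson r of 0.58 (range -0.17 to 0.95). Mmp10 and Mmp13 were the closest pair (r = 0.95), followed by Mmp3 with Mmp10 (0.92) and Mmp10 with Timp1 (0.90). Mmp7 had an r between -0.17 and 0.11 with each of the others, Mmp13 being the lowest. Mmp2 was closest to Timp1 (0.77) and had an r of -0.034 with Mmp8. The arrays share tissue sampling, labelling and slides, so these values describe the arrays and carry no test.

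**Figure D4:**
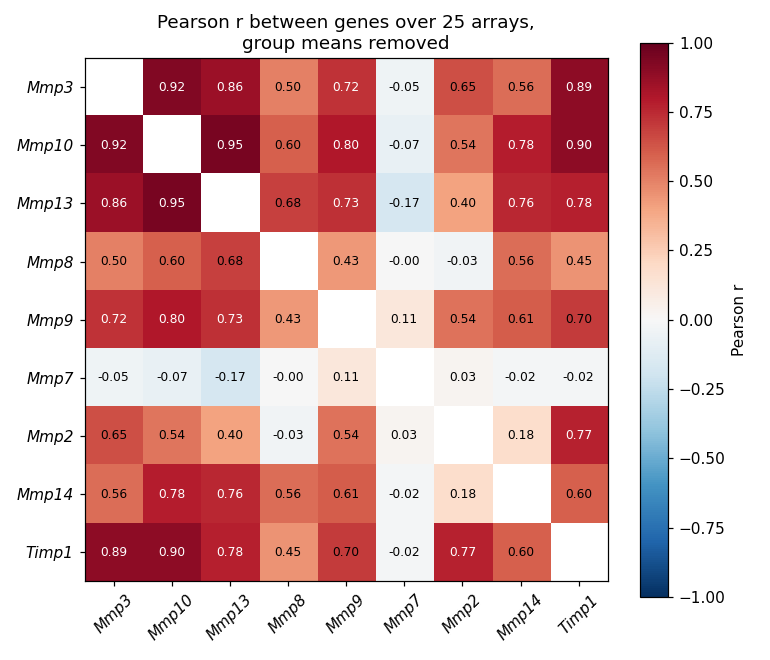
Pearson r between each pair of the 9 tested genes over 25 arrays after removal of the 6 group means (colour scale and printed value). The block of Mmp3, Mmp10, Mmp13 and Timp1 lies between 0.78 and 0.95, and the Mmp7 row and column lie near 0.

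The genes whose pattern over the 25 arrays was most like that of 3 members were listed by Pearson r among 14881 named genes. For Mmp3 they were Ccl2 (0.972), a monocyte chemokine, Fcgr2b (0.970), the inhibitory IgG receptor, Ms4a4a (0.968), a macrophage membrane protein, Serpina3n (0.967), an acute-phase protease inhibitor, and Retnlg (0.966), a neutrophil product. For Mmp2 they were Pdgfra (0.977), the receptor that marks fibroblasts, Sparc (0.974), Lamb1 (0.973) and Col1a2 (0.972), which encode matrix proteins, and Fam20a (0.968). For Timp1 they were Ifitm1 (0.983), an interferon-induced membrane protein, Clec4n (0.975), the C-type lectin Dectin-2 that signals through Card9, Inhba (0.973), an activin subunit, Pdpn (0.970), a membrane glycoprotein of activated fibroblasts, and Efemp2 (0.969), a protein of elastic fibres. With group means removed, r stayed between 0.77 and 0.88 for the 5 genes like Mmp3, between 0.96 and 0.97 for those like Mmp2 and between 0.90 and 0.95 for those like Timp1.

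Of 18 other Mmp and Timp family genes, 12 were bright enough to test. In arrays labelled Card9-/- at day 7, 3 of 12 were called higher, where 6.93% of all tested genes were: Mmp23 (1.51 ± 0.33, adjusted p = 0.00277), Mmp19 (2.76 ± 0.62, at least 1.98-fold, adjusted p = 0.00328) and Timp3, a matrix-bound inhibitor (1.60 ± 0.39, adjusted p = 0.00578). In arrays labelled WT none of the 12 was called by limma, where 2.02% of all tested genes were called higher, with Mmp19 nearest (2.00 ± 0.59, adjusted p = 0.0585). The list's median difference was 0.62 in arrays labelled Card9-/- and 0.44 in arrays labelled WT, beside -0.081 and 0.026 over all tested genes. At day 12, Mmp23 alone of the 12 was called higher than at day 0 in arrays labelled Card9-/- (1.30 ± 0.32, adjusted p = 0.0158), and none in arrays labelled WT. Of all tested genes, 3.71% and 1.13% were called higher.

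Of the 16 measured genes of the plasminogen system and other activators of metalloproteinase precursors, 7 rose at day 7 in arrays labelled Card9-/- and 2 in arrays labelled WT. Of all tested genes, 6.93% and 2.02% were called higher. Adam8, a metalloproteinase-disintegrin of myeloid cells, rose by 3.79 ± 0.48 (adjusted p = 2.83e-05) and Plat, the tissue plasminogen activator, by 2.82 ± 0.50 (adjusted p = 0.000536) in arrays labelled Card9-/-. In arrays labelled WT Prss22, a serine protease of epithelium, rose by 3.17 ± 0.71 (at least 1.96-fold, adjusted p = 0.014), and Plat missed the threshold (1.61 ± 0.48, adjusted p = 0.0616). Adam8 was the 1 gene of this list called between genotypes at day 7, higher by 1.86 ± 0.42 in arrays labelled Card9-/- (adjusted p = 0.0481). In that comparison 0.145% of all tested genes were called higher. At day 12 against day 0, 4 of 16 were called higher in arrays labelled Card9-/- and 1, Prss22, in arrays labelled WT. The shares of all tested genes called higher were 3.71% and 1.13%.

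Of 19 cytokines, growth factors and AP-1 genes known to induce metalloproteinases, 10 rose and 1 fell at day 7 in arrays labelled Card9-/-, and 5 rose in arrays labelled WT. Among all tested genes, 6.93% were called higher and 12.7% lower in arrays labelled Card9-/-, and 2.02% higher in arrays labelled WT. Il1b rose by 8.91 ± 0.85 in arrays labelled Card9-/- (at least 273-fold, adjusted p = 1.93e-06) and by 6.05 ± 0.81 in arrays labelled WT (66.2-fold, adjusted p = 0.000245). Il11 rose by 7.05 ± 0.99 in arrays labelled Card9-/- (adjusted p = 6.7e-05) and by 5.74 ± 0.95 in arrays labelled WT (adjusted p = 0.00154), and Tnf by 4.33 ± 0.62 in arrays labelled Card9-/- (adjusted p = 8.06e-05) and 3.06 ± 0.59 in arrays labelled WT (adjusted p = 0.00547). The gene that fell was Fos, an AP-1 subunit. None of the 19 was called between genotypes at day 7, where 0.55% of all tested genes were called in either direction. Il1b and Il11 were still called higher at day 12 than at day 0 in both genotypes, among 6 of 19 in arrays labelled Card9-/- and 4 of 19 in arrays labelled WT. Among all tested genes 3.71% and 1.13% were called higher.

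**Figure D5:**
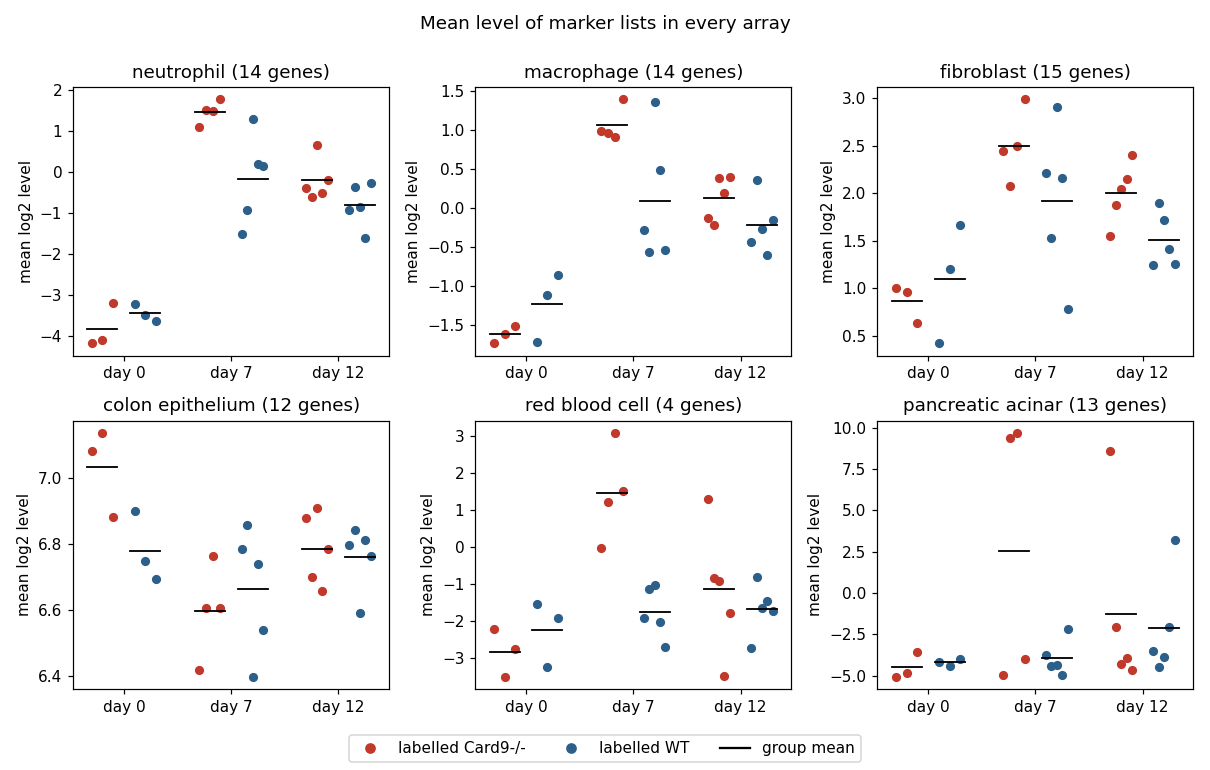
Mean log2 level of 6 marker lists (vertical axes) in each array by day, with arrays labelled Card9-/- left of those labelled WT and group means as bars. Neutrophil, macrophage and fibroblast means are higher at day 7 in arrays labelled Card9-/- than at day 0, and acinar genes are high in 4 arrays.

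Markers of other cells also moved with the rise of the metalloproteinases at day 7 in arrays labelled Card9-/-. Of 9 endothelial markers 8 were called higher, and of 4 red blood cell markers all 4, with a summed level of 21.7 to 205.5 at day 7 against 3.26 to 5.31 at day 0. The share of all tested genes called higher was 6.93%. Of 12 colon epithelium markers 3 were called lower (Muc2, Cdx2 and Car1), and of 9 smooth muscle markers 2, where 12.7% of all tested genes were called lower. None of the endothelial, red blood cell or epithelium markers was called at day 7 in arrays labelled WT, where 4.35% of all tested genes were. Their part in the metalloproteinase values was not tested. Without the 4 arrays with high acinar genes, 8 of the 9 tested metalloproteinase and Timp1 genes were again called at day 7 in arrays labelled Card9-/-. Mmp3 was then at 9.27, Mmp10 at 9.77 and Timp1 at 4.97.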

How the data were processed

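Colon RNA of 25 mice was hybridised to Agilent arrays of 1 colour (design 028005, coordinates of build mm9), a mouse to an array. The members and gene lists were chosen with earlier results of these data known. Each scanner file holds spot intensity values that Feature Extraction 10.7.3.1 made, background-subtracted and corrected for trends on the array but not normalized between arrays, per the file headers. The series table that the authors deposited has 33418 probes on what its values show to be a log2 scale (column medians 7.906 to 7.911). Its direction and lack of gene centring follow from correlations of 0.983 to 0.992 with the scanner values, its normalization is unknown here, and it served as an alternative only.

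The analysis took log2 of the processed intensity minus the array's 75th percentile of it, left out control spots and outlier flags, and averaged spots of a probe. Probes well above background on 3 or more of the 25 arrays were kept (36260 of 55681 probes), and the probe with the highest mean stood for a gene with several (7322 genes). Of the probes, 27656 were named by accession, 3401 by symbol and 321 by synonym from RefSeq, and 24303 kept the name in the file. The 75th percentile ranged from 196 to 661 intensity units. The number of arrays limits the precision.

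The 6 group means were fitted together with limma 3.58.1 (lmFit, eBayes) in R 4.3.3, with data.table (version 1.17.8), and figures were drawn with matplotlib 3.10.9 in Python 3.11.15. Calls need a Benjamini-Hochberg adjusted p under 0.05 within a contrast, over 25444 genes or unnamed probes. The script was tested on simulated data. An "at least" fold sets the bright group against a floor, per array, which is the dim probe's own signal or, if higher, that of the faintest probe well above background. Named genes were all 10 members in every comparison, Card9, the 3 smallest p of each list described in a comparison, and the 5 genes most like Mmp3, Mmp2 and Timp1 by Pearson r among genes well above background on at least 13 arrays. Other genes named are members of a described list, added after their values were seen.

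The alternatives were quantile normalization, normexp (offset 50), the deposited table, a filter of 13 arrays, no filter at all, the median of a gene's probes, slide and replicate number as blocks, a fit of the compared groups alone, the proximal Hox mean as a covariate, the arrays with high acinar genes left out, those with high proximal Hox genes left out (chosen after seeing the data), values within slides, and each array left out in turn.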

Additional observations from a re-analysis of the deposited data

Results flagged for a closer look

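In 36 tests for a single array far from the rest of its group, 1 array stood out. Mmp7 in replicate 1 labelled WT at day 12 was at -1.65, well below the other 4 arrays of its group, which lay between -0.18 and 0.32. Chance picks out about 1 in 20 such groups. Without that array the Mmp7 difference between day 12 and day 0 in arrays labelled WT was 3.62 (adjusted p = 0.0421, limma), against 3.28 (adjusted p = 0.051) with it.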

How the results depend on the processing

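No called difference changed direction under any alternative that was run. The counts below, also those with single arrays left out, have no share of all tested genes beside them. Shares given earlier belong to the main fit. In arrays labelled Card9-/- the count of genes called at day 7 against day 0 was 8, 7 or 6 of those measured under every alternative, the 6 being of 7 genes in the series table and with the filter of 13 arrays, except for 5 without the 3 arrays with high proximal Hox genes, an alternative chosen after seeing the data. The count at day 7 against day 0 in arrays labelled WT, 4, became 0 when the compared groups were fitted alone, 3 (of 7 genes) in the series table, 6 with the Hox covariate and without the 3 high Hox arrays, and 5 with normexp and without the acinar arrays. The count at day 12 against day 0 in arrays labelled WT, 1, became 4 with the filter of 13 arrays, 2 with the slide block, 3 with the compared groups alone, 4 with the Hox covariate, 3 without the 3 high Hox arrays and 0 without the 4 arrays with high acinar genes; with normexp and in the series table it was 1 through Mmp7 in place of Mmp10. In arrays labelled Card9-/- the count at day 12 against day 0, 6, became 2 with the Hox covariate, 1 without the 3 high Hox arrays, 4 with normexp, quantile normalization, the slide block and the series table, and 5 with no filter, the filter of 13 arrays and the probe median. The count at day 12 against day 7, 2, became 1 with the filter of 13 arrays, 1 with the compared groups alone and 0 without the 4 acinar arrays, and 3 with normexp, the Hox covariate and without the 3 high Hox arrays. The filter of 13 arrays drops Mmp8 and Mmp9, and the series table lacks Mmp8 and Mmp13; otherwise the cause was not tested. With single arrays left out the counts ranged from 7 to 8 (day 7 against day 0, Card9-/-), 3 to 7 (the same, WT), 4 to 6 (day 12 against day 0, Card9-/-), 0 to 2 (the same, WT), 0 to 2 (day 12 against day 7, Card9-/-), 0 to 1 (the same, WT) and 0 to 4 (genotype at day 7), and stayed at 0 for genotype at days 0 and 12 and for the differences in change. Normexp gave smaller sizes, such as 1.54 for Mmp8 and 5.52 for Mmp3 at day 7 in arrays labelled Card9-/-, beside 4.55 and 8.82, and 5.33 for Mmp10, beside 9.31. With the replicate number as a block no count changed (8 in arrays labelled Card9-/- and 4 in arrays labelled WT at day 7 against day 0). The numbers do not pair the mice: of 54 same-numbered pairs of arrays, 15 had deviations correlated above 0.1 (range -0.44 to 0.68). Levels of Mmp12, of Mmp8 and Mmp9, and at day 0 of Mmp3, Mmp10 and Mmp13, lie near background, which limits their folds.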
